A study of Mus musculus with 5 samples.

Results

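The genes described here are the replication-dependent histone genes of the mouse, taken as every row of the deposited expression table whose symbol begins with *Hist1h*, *Hist2h*, *Hist3h* or *Hist4h*. There were 68 such genes among the 24319 genes of the table. By the class read from the symbol, 6 were H1 genes, 18 were H2A, 19 were H2B, 12 were H3 and 13 were H4. In the GENCODE M21 annotation of mm10, 54 of them lie in the *Hist1* cluster on chromosome 13 (21715763 to 23934851), 10 in the *Hist2* cluster on chromosome 3 (96219865 to 96270132), 3 in the *Hist3* cluster on chromosome 11 (58948920 to 58956830) and 1, *Hist4h4*, on chromosome 6 (136801553 to 136804415). All but the pseudogene *Hist3h2bb-ps* are annotated as protein coding. The annotation gives 63 of them a single exon, which is then the whole transcript.

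RNA-seq was measured in 5 libraries of mouse mammary luminal cells, the epithelial cells that line the ducts and alveoli, sorted as DAPI- CD24 high CD29 low cells from mice of a mixed background (C57BL/6 and 129/Sv in the study's methods). Replicates 1, 2 and 3 are labelled wild type, with no further allele given. Replicates 4 and 5 are labelled *Brca1* knockout, and the study's knockout mice carried MMTV-Cre, a transgene driven in mammary epithelium, with Brca1 fl/fl. The methods describe females about 3 to 4 months old, virgin or pregnant, without giving the stage of any library, whether animals were pooled, or alleles or agents common to all 5 libraries. The study's text describes its luminal cells as BRCA1-deficient, so each library is called here by its label. The *Brca1* level was 1.30, 1.32, 0.234, 1.20 and 1.34 FPKM in replicates 1 to 5 and did not separate the labels. The conditional allele removes an internal exon, which a value over the whole gene does not check.

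Values are FPKM, in which fragment numbers are scaled to transcript length and library size, so that levels of genes of different length are on one scale. The smallest steps between FPKM values put the depth at roughly 6590000 to 32400000 fragments per library, and between 10979 and 11336 genes reached 1 FPKM. The luminal markers (*Krt8*, *Krt18*, *Krt19*, *Epcam*, *Cdh1*, *Cd24a*, *Elf5*) summed to 6623 to 10469 FPKM, while the adipocyte markers *Adipoq* and *Plin1* summed to 0.0264 to 0.0903 FPKM. Replicate 3 stood apart before any histone gene was considered. Its 6 mature luminal markers, such as the progesterone receptor gene *Pgr* and *Areg*, summed to 508 FPKM against 20.3 to 45.2 FPKM in the other 4 libraries, and it had the lowest value for 51.8% of the 11481 genes whose mean reached 1 FPKM, which are the genes tested. Replicates 2 and 5 stood apart in another way. In them the 1269 microRNA and snoRNA entries of the table took 5.73% and 5.26% of all FPKM, against 16.9%, 17.7% and 16.7% in replicates 1, 3 and 4.

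Replication-dependent histones supply the core proteins H2A, H2B, H3 and H4 of the nucleosome and the linker protein H1 while DNA is copied. Their genes have no introns and sit in clusters, with many H2A and H2B genes side by side and facing away from each other. Their mRNAs mostly end not in a poly(A) tail but in a short stem-loop, which is bound by the protein SLBP and cut by a dedicated complex. Some members are also made as polyadenylated mRNA, for example in cells that have left the cell cycle. How the RNA was selected for these libraries is not stated, apart from the kit, and it is therefore not known how fully mRNAs without a tail were sampled.

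The stem-loops are shown because they mark this gene family, and because those of H4 genes have a stem of their own. The annotated transcripts were searched after the stop codon for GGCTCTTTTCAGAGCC, which was the inverted repeat with stems of 6 bases and a loop of 4 bases found there in the most members, with up to 3 mismatches. Of the 52 genes with at least 16 annotated bases there, 43 had a match, 25 of them exact, against 1.18% of 20996 other coding genes. The match began a median of 31 bases after the stop codon (range 21 to 58). In the lines that follow the 4 bases of the loop are in capitals, and the transcripts are those of GENCODE M21.
Hist1h1c: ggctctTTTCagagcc
Hist1h3c: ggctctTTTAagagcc
Hist2h2ac: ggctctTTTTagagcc
Hist1h4h: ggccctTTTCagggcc
Hist1h4i: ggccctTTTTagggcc
The first form was that of all 25 exact matches, which include *Hist1h1c*, *Hist1h2ac*, *Hist1h2bg*, *Hist1h3b* and *Hist3h2a*. A loop of TTTA was found in 6 genes (*Hist1h1t*, *Hist1h2bb*, *Hist1h2bk*, *Hist1h3c*, *Hist1h3e* and *Hist1h3f*). All 10 H4 genes with a match had the stem ggccct with agggcc, which no gene of the other classes had. The loop TTTT was shared by *Hist1h4i* and *Hist2h4*, with H4 stems, and by *Hist2h2ac*.

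The annotated transcripts differed in how far they run past the loop. In 22 of the 43 genes the transcript goes on for over 100 bases, and 13 of these 22 hold the poly(A) signal letters AATAAA after the loop. In the other 21 it ends within 100 bases, and 0 of them hold these letters. The letters were sought anywhere after the loop, so the longer transcripts had more room for them and the counts are not comparable. *Hist1h1c* (840 bases past the loop), *Hist1h2ac* (2010 bases) and *Hist3h2a* (1643 bases) belong to the longer kind. *Hist1h2ao* (31 bases) and *Hist2h2aa1* (35 bases) belong to the shorter kind. Mean levels overlapped widely, with a median of 3.24 FPKM for the longer kind (range 0.00178 to 72.4) and 2.93 FPKM for the shorter kind (range 0.000178 to 24.1).

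Promoters are printed as examples for the leading H1 gene, for an H2A gene of the *Hist1* cluster and for the leading H4 gene. Each runs from 250 bases before to 50 bases after the start, from RefSeq on GRCm38.p6, the patch release of the mm10 genome, and 62 of the 68 genes matched an entry. Capitals mark the motifs searched on both strands, which were the TATA box TATAAA, the CCAAT box CCAAT, the octamer ATTTGCAT and the H1 box AAACACA. The last lies in the linker histone promoters and the octamer is known from H2B promoters. The *Hist1h1c* window is chr13:23738557-23738856 (plus strand), that of *Hist1h2ac* is chr13:23683910-23684209 (minus strand) and that of *Hist1h4i* is chr13:22041313-22041612 (minus strand).
Hist1h1c: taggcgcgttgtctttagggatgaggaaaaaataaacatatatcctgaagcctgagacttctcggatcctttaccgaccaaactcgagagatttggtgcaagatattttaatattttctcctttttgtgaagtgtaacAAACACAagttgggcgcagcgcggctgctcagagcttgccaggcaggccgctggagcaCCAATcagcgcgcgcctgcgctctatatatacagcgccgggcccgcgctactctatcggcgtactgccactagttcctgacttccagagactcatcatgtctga
Hist1h2ac: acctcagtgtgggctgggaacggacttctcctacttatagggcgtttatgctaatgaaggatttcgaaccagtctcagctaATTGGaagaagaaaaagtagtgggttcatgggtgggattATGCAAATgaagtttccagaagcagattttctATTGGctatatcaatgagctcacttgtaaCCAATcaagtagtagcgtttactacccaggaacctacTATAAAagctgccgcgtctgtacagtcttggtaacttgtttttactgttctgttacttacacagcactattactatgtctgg
Hist1h4i: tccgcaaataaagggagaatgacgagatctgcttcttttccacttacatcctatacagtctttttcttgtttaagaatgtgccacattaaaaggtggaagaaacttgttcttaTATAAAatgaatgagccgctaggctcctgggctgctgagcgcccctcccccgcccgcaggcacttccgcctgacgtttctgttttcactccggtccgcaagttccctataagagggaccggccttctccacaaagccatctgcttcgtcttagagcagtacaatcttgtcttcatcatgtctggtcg
The H1 box of *Hist1h1c* begins at position -112 from the start, and the octamer of *Hist1h2ac*, read on the other strand, at position -130. The *Hist1h2ac* window spans the whole gap to *Hist1h2bc*, whose start lies 250 bases away on the opposite strand, so the printed bases are the promoter region of both genes.

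The motifs were spread unevenly over the classes. The H1 box was found in 5 of 6 H1 promoters, between positions -112 and -122, in 2 of 18 H2A and 2 of 16 H2B promoters and in 0 of 10 H3 and 0 of 12 H4 promoters, against 7.14% of all 27025 promoters. The octamer was found in 7 of 18 H2A and 6 of 16 H2B promoters and in 0 of the others, against 1.75% of all promoters. CCAAT occurred in every H1 (6), H2A (18), H2B (16) and H3 (10) promoter and in 3 of 12 H4 promoters, against 37.9% of all promoters. TATAAA was found in 35 of 62, against 14.2%. H2A and H2B genes that start back to back have overlapping windows, so the same motif can be counted in both classes. Their counts are therefore not independent. None of these motifs contains another, and a match is a description of the letters only.

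The classes differed in level and in which libraries were high, with H1 and H2B at similar levels and H3 well below the rest. The 6 H1 genes summed to 88.5 ± 34.2 FPKM (SD, n = 5 libraries), the 18 H2A genes to 171 ± 139 FPKM, the 19 H2B genes to 94.7 ± 18.5 FPKM, the 12 H3 genes to 13.02 ± 2.21 FPKM and the 13 H4 genes to 46.8 ± 17.6 FPKM. H3 was the lowest class in each of the 5 libraries, while the ranges of H1, H2A, H2B and H4 overlapped. Together the 68 genes took 0.0467%, 0.0759%, 0.0751%, 0.0490% and 0.122% of all FPKM in replicates 1 to 5. Of the 68, 40 reached 1 FPKM in every library and 6 stayed below 1 FPKM in every library.

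**Figure D1:**
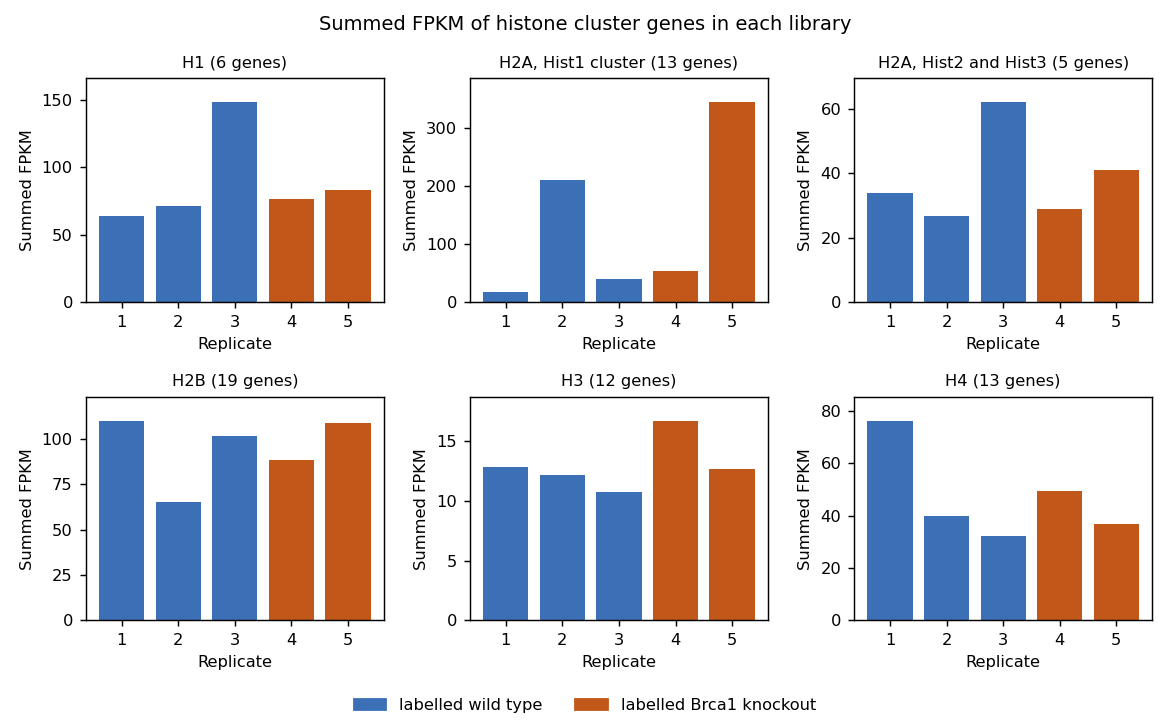
Summed FPKM (vertical axes, each starting at 0) of the histone genes of each class in each replicate (horizontal axes), with H2A divided by cluster. Blue bars are libraries labelled wild type and orange bars libraries labelled Brca1 knockout. The H1 bar is highest in replicate 3 (148 FPKM), the Hist1 H2A bars in replicates 2 and 5 (210 and 344 FPKM), and neither follows the labels.

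The spread between libraries differed most between H2A and H2B, the partners of one dimer. Among the genes tested the median coefficient of variation over the 5 libraries was 1.07 for H2A (14 genes) and 0.223 for H2B (18 genes), beside 0.393 for H1, 0.387 for H3, 0.431 for H4 and 0.233 for all 11481 genes. The H2A spread came from the *Hist1* cluster, whose 13 H2A genes summed to 17.5, 210, 40.0, 52.6 and 344 FPKM in replicates 1 to 5. The highest library was 19.7 times the lowest. Replicates 2 and 5, a wild type and a knockout label, lay above the other 3 libraries. The 5 H2A genes of *Hist2* and *Hist3* did not share this, with sums of 33.9, 26.7, 62.0, 28.9 and 40.9 FPKM.

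**Figure D2:**
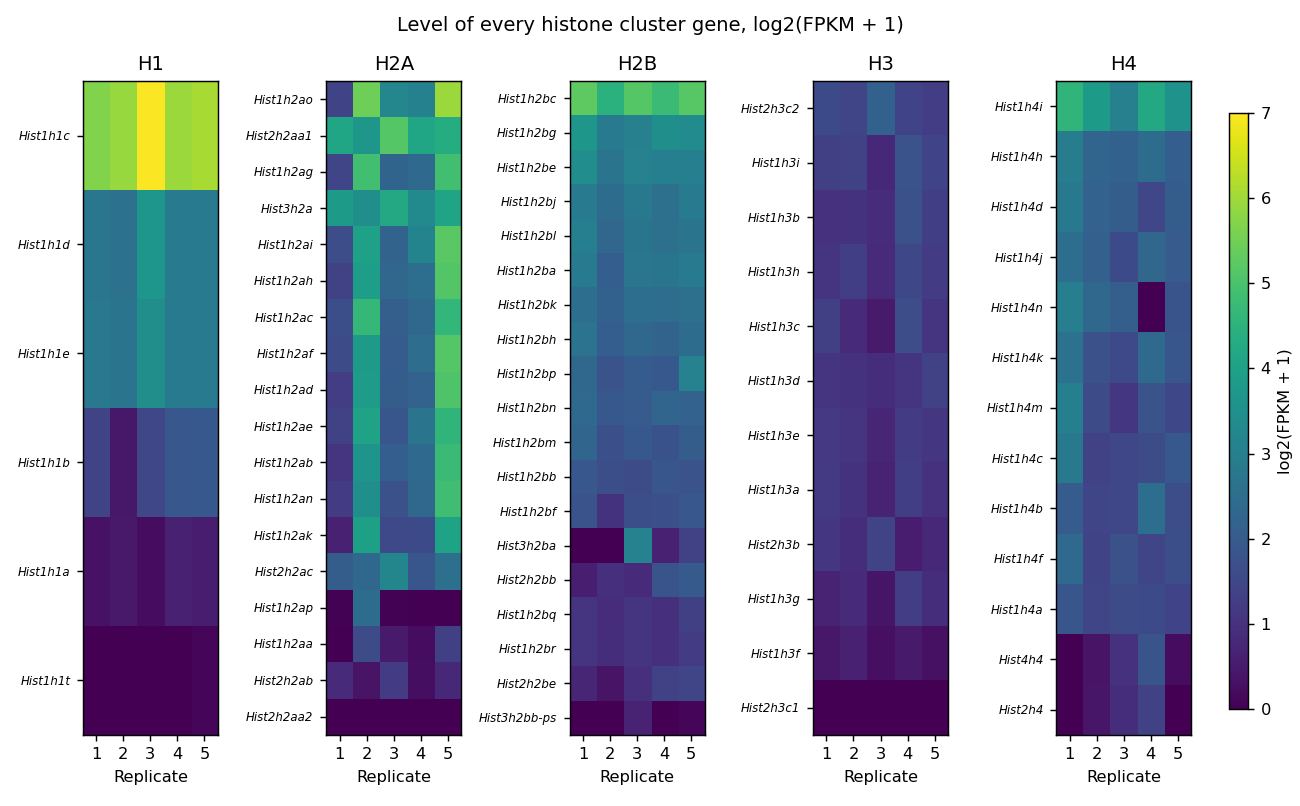
Level of each of the 68 genes as log2(FPKM + 1) (colour scale), with genes as rows ordered by mean level within their class and replicates 1 to 5 as columns. Among H2A genes most Hist1 rows are brightest in columns 2 and 5, Hist1h2ap being bright in column 2 only, while most H2B rows change little across columns.

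H1 binds the DNA between nucleosomes, and 1 gene supplied most of this class. *Hist1h1c* (chromosome 13, 23738808 to 23740367) made up 81.8% of the H1 level. Its values were 50.04, 59.6, 125, 60.4 and 67.3 FPKM in replicates 1 to 5. Replicate 3 alone was high, and the knockout-labelled libraries lay within the range of the wild type label. *Hist1h1d* was at 5.75, 5.14, 11.7, 6.35 and 6.35 FPKM in replicates 1 to 5. For *Hist1h1e* the values were 5.98, 5.50, 10.05, 6.29 and 6.24 FPKM. Both had the same shape as *Hist1h1c*, with the other 4 libraries close together. A gap between 1 library and its nearest neighbour of over 0.71 of the range was found in 11 of the 56 histone genes tested, against 12.6% of all genes. In 6 of 56 it was replicate 3 that lay apart, against 8.95%, and in 5 of 56 replicate 3 lay apart as the highest library, against 5.28%. These 5 were the 3 H1 genes just named, *Hist2h3c2* and *Hist3h2ba*. *Hist1h1e* overlaps the H2B gene *Hist1h2be* in the annotation, so fragments there cannot be assigned to either with certainty.

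The remaining H1 genes did not share that shape. *Hist1h1b* was at 1.70, 0.355, 1.78, 2.77 and 2.77 FPKM, with both knockout-labelled libraries above the 3 others. *Hist1h1a* stayed between 0.167 and 0.548 FPKM. The testis gene *Hist1h1t* was listed at 0 in replicates 1 to 4 and at 0.0809 FPKM in replicate 5. On its transcript of 912 bases that is an estimated 1.66 fragments. The H1 genes other than *Hist1h1c* summed to 13.7, 11.4, 23.7, 15.95 and 15.91 FPKM, so that replicate 3 was highest without the leading gene too. It was also highest after median-of-ratios scaling, which brings the median gene of each library to one level (176.6 FPKM for the class against 59.9 to 78.8 FPKM in the others).

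Among the H2A genes, all 11 *Hist1* genes that were tested had replicates 2 and 5 as their 2 highest libraries, and 0 of the other 45 tested histone genes did. This order of libraries occurred in 8.65% of all 11481 genes. *Hist1h2ao* (chromosome 13, 21810465 to 21810944), the highest H2A gene by mean, was at 1.72, 42.6 and 8.47 FPKM in replicates 1, 2 and 3 and at 7.43 and 60.4 FPKM in replicates 4 and 5. The 2 high values fell in different labels and the 3 low ones did not come near them. *Hist1h2ag* was at 1.74, 28.6, 3.73, 4.23 and 28.7 FPKM in replicates 1 to 5. *Hist1h2ai* was at 2.14, 15.1, 3.66, 7.85 and 36.2 FPKM. In each of these genes replicate 1 was the lowest library. The remaining 8 genes of the 11 had means between 6.98 FPKM (*Hist1h2ak*) and 11.7 FPKM (*Hist1h2ah*).

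Sequence shared between the copies limits what can be said of single H2A genes. Of the 100-base windows of an annotated transcript, a median of 30.1% were found in no other annotated gene for H2A, against 99.6% for H1, 65.3% for H2B, 50.3% for H3 and 81.0% for H4. Across all classes 58 of the 68 genes shared a window with another of the 68, and 2 with one of another class. The same 2 libraries led in 3 *Hist1* H2A genes with mostly unique windows. Of these, *Hist1h2ac* and *Hist1h2ak* still share some windows with 33 and 25 other annotated genes. FPKM over a whole transcript does not show whether fragments fell in unique or shared windows, so the values cannot settle the part of shared sequence. *Hist1h2ac* (chromosome 13, 23681467 to 23683948, 91.9% of windows unique) was at 2.19, 24.3, 3.35, 4.15 and 23.8 FPKM. *Hist1h2ak* (84.0% unique) was at 0.575, 14.9, 1.94, 1.96 and 15.6 FPKM. *Hist1h2aa*, a testis gene with 89.7% of windows unique and too low to be tested, was at 0, 2.02, 0.411, 0.173 and 1.504 FPKM. Replicates 2 and 5 were the 2 highest libraries in all 3.

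The H2A genes outside *Hist1* kept to a narrower range. *Hist2h2aa1* (chromosome 3, 96245497 to 96246082) was at 16.8, 12.02, 34.6, 16.7 and 19.2 FPKM in replicates 1 to 5. *Hist3h2a* (chromosome 11, 58954685 to 58956830) was at 13.1, 10.2, 17.8, 9.29 and 15.9 FPKM. *Hist2h2ac* was at 3.20, 4.12, 8.21, 2.67 and 5.02 FPKM. All 3 were highest in replicate 3, as H1 was. *Hist2h2ab* stayed between 0.197 and 1.38 FPKM.

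H2B, which pairs with H2A in the nucleosome, was the steadiest of the core classes by gene. *Hist1h2bc* (chromosome 13, 23684199 to 23692908), which made up 32.8% of the H2B level, was at 37.2, 21.1 and 34.9 FPKM in replicates 1, 2 and 3 and at 26.5 and 35.4 FPKM in replicates 4 and 5. *Hist1h2bg* was at 12.1, 6.22, 7.26, 10.2 and 9.31 FPKM and *Hist1h2be* at 9.71, 5.43, 7.57, 7.10 and 7.18 FPKM. *Hist1h2bj* and *Hist1h2bl* had means of 5.70 ± 0.817 and 5.45 ± 1.14 FPKM (SD, n = 5). Replicate 2, in which the *Hist1* H2A genes were high, was the lowest library for 15 of the 18 H2B genes tested, against 15.4% of all genes. *Hist1h2ba*, a gene known for its role in testis, was at 6.33, 3.29, 5.69, 5.61 and 6.28 FPKM, and 72.6% of its windows were unique.

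A few low H2B genes departed from this. *Hist3h2ba* was listed at 0 in replicates 1 and 2 and was at 7.66, 0.573 and 1.55 FPKM in replicates 3, 4 and 5. *Hist2h2bb* was at 0.508, 0.928 and 0.815 FPKM under the wild type label and at 2.56 and 2.94 FPKM under the knockout label. *Hist2h2be* was at 0.682, 0.298 and 0.965 FPKM under the wild type label and at 1.54 and 1.78 FPKM under the knockout label. For the last 2 genes the labels did not overlap. *Hist2h2bb* lies inside other annotated genes, with 0% of its windows unique. Its values rest on an estimated 1.28, 4.88, 10.1, 6.56 and 25.2 fragments in replicates 1 to 5.

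The pairs of H2A and H2B genes that start back to back were compared next. Partners are not always alike, since *Hist1h2bc*, *Hist1h2bp* and *Hist1h2bq* are annotated with 2, 2 and 3 exons. *Hist1h2bq* is taken at 2015 bases, beside 480 bases for *Hist1h2ao*, so a ratio within a pair also reflects the annotated transcripts. There were 13 such pairs, 11 of them in *Hist1* with 175 to 305 bases between the starts. Leaving out *Hist1h2ap* with *Hist1h2br*, which is described with the copies, the H2A genes of the 10 *Hist1* pairs had a median of 1.55, 14.996, 3.27, 4.19 and 28.2 FPKM in replicates 1 to 5. Their H2B partners had a median of 5.57, 3.41, 5.17, 4.85 and 5.89 FPKM. The median ratio of H2A to H2B was 0.286, 4.14, 0.646, 0.929 and 4.41. H2A was above its partner in 9 of 10 pairs in replicate 2 and in 8 of 10 in replicate 5, and in 1, 2 and 5 of 10 pairs in replicates 1, 3 and 4. In the pair *Hist1h2ac* and *Hist1h2bc*, whose shared promoter region is printed above, the ratio was 0.0590, 1.16, 0.0958, 0.157 and 0.671. In the *Hist2* pair *Hist2h2ac* and *Hist2h2be* it was 4.69, 13.8, 8.51, 1.74 and 2.81, so that there replicate 5 was not high.

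**Figure D3:**
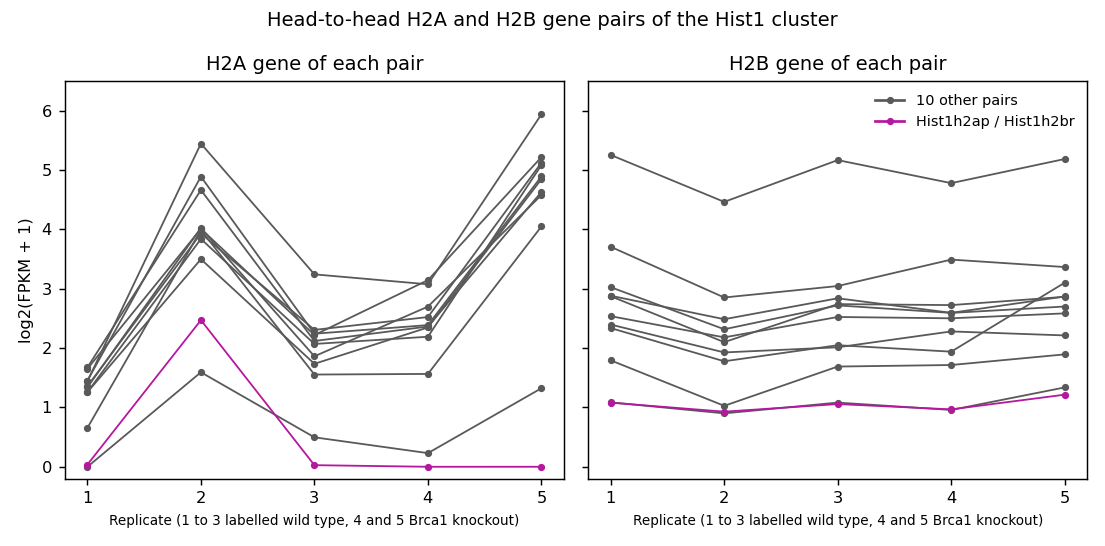
Level as log2(FPKM + 1) of the H2A gene (left panel) and the H2B gene (right panel) of 11 head-to-head pairs of the Hist1 cluster in replicates 1 to 5 (horizontal axes). Each line joins the 5 values of a gene and stands for no order of the libraries, and the pair Hist1h2ap with Hist1h2br is in magenta. Apart from Hist1h2ap, which is high in replicate 2 only, the H2A lines are high in replicates 2 and 5, while the H2B lines vary much less.

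Some other measures also set replicates 2 and 5 apart. As given above, the share of FPKM in microRNA and snoRNA entries was lowest in replicates 2 and 5. Annotated entries with names beginning Gm44 lie over 14 of the 18 H2A genes, and 0 of these overlapping entries are rows of the deposited table. The 14 genes include *Hist2h2ac* and *Hist3h2a*, which were highest in replicate 3, and leave out *Hist1h2ao*. The immune markers (7 genes) summed to 929 and 471 FPKM in replicates 2 and 5 and to 26.7 to 248 FPKM in the others. Most of the 2 high sums was *Cd74*, at 696 and 465 FPKM. Of the 5 immune genes tested, only *Cd74* had replicates 2 and 5 as its 2 highest libraries. *Lyz2* was at 213 FPKM in replicate 2, 4.53 FPKM in replicate 5 and 28.7 FPKM in replicate 3. *Ptprc*, which defines leukocytes, was at 4.93 FPKM in replicate 2, 0.183 FPKM in replicate 5 and 2.69 FPKM in replicate 3, and *Cd3e* was listed at 0 in replicates 1 and 4. The part of the short entries and of immune cells in the H2A levels was not tested. In bulk samples, fewer cells with an mRNA and less of it per cell cannot be told apart. After median-of-ratios scaling the *Hist1* H2A sums were 16.4, 207.8, 47.7, 49.4 and 326.1 FPKM, in the same order.

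H3, the core partner of H4, was low throughout. *Hist2h3c2* led the class and was at 1.96, 1.78 and 3.53 FPKM in replicates 1, 2 and 3 and at 1.64 and 1.43 FPKM in replicates 4 and 5. *Hist1h3i* was at 1.52, 1.54, 0.737, 2.46 and 1.64 FPKM and *Hist1h3b* at 1.00, 1.05, 0.860, 2.35 and 1.48 FPKM. *Hist1h3h* ranged from 0.8003 to 1.88 FPKM and *Hist1h3c* from 0.429 to 2.16 FPKM. These *Hist1* genes were lowest in replicate 3 and highest in replicate 4, whereas *Hist2h3c2* was highest in replicate 3. Replicate 4 was the highest library for 6 of the 9 H3 genes tested, against 20.1% of all genes. In these 6 genes the replicate 4 values rest on few fragments, from an estimated 5.20 (*Hist1h3h*) to 9.79 (*Hist1h3b*). *Hist2h3b*, at 1.15, 0.902, 1.73, 0.464 and 0.762 FPKM, was highest in replicate 3 as well.

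Within the H3 class the clusters thus went opposite ways in replicate 3. The 9 *Hist1* H3 genes summed to 9.72, 9.47, 5.52, 14.6 and 10.4 FPKM in replicates 1 to 5, and the 3 *Hist2* H3 genes to 3.12, 2.68, 5.25, 2.11 and 2.19 FPKM. Replicate 3 was the lowest library for all 7 tested *Hist1* H3 genes, a pattern of 51.8% of all genes, and the highest for both such *Hist2* genes, a pattern of 18.5%. Scaling by median-of-ratios kept replicate 3 lowest for the *Hist1* H3 sum (6.57 FPKM against 9.14 to 13.7 FPKM) and highest for the *Hist2* H3 sum (6.26 FPKM). The sum over all 12 H3 genes was lowest in replicate 3 as deposited (10.8 FPKM) but not after scaling (12.8 FPKM, with 11.97 FPKM in replicate 5).

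H4 genes were led by *Hist1h4i* (chromosome 13, 22040636 to 22041362), with 30.8% of the class. Its values were 23.0, 13.05, 7.23, 17.7 and 11.1 FPKM in replicates 1 to 5. *Hist1h4h* was at 6.74, 3.85, 3.52, 4.58 and 3.29 FPKM, *Hist1h4d* ranged from 1.79 to 6.16 FPKM and *Hist1h4j* from 1.95 to 4.78 FPKM. Replicate 1 was the highest library for 10 of the 11 H4 genes tested, against 24.2% of all genes, and for 10 of the 18 H2B genes tested. The class summed to 76.1, 39.8, 32.2, 49.4 and 36.6 FPKM, and replicate 1 was also highest after scaling (71.6 FPKM). The lone genes outside *Hist1* were low, *Hist4h4* at 0, 0.280, 0.991, 2.51 and 0.176 FPKM and *Hist2h4* at 0, 0.354, 0.872, 1.63 and 0 FPKM.

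Near-identical copies stood at very unequal levels. *Hist2h2aa2* was listed between 0.0000668 and 0.000318 FPKM while its twin *Hist2h2aa1*, whose windows are likewise 0% unique, was at 12.02 to 34.6 FPKM. *Hist2h3c1* stayed at or below 0.00326 FPKM beside *Hist2h3c2*. *Hist1h2ap* reached 4.55 FPKM in replicate 2, with 0.000520 to 0.0264 FPKM elsewhere, while *Hist1h2ao* reached 60.4 FPKM in replicate 5. *Hist1h4n* was at 0.00336 FPKM in replicate 4 and at 2.50 to 6.89 FPKM elsewhere, and its copy *Hist1h4m* was at 2.49 FPKM in replicate 4. How fragments were divided between such copies was set by the authors' quantification, so single values of these 8 genes are uncertain. The sum of each pair depends on that division only through the lengths of the copies, since FPKM is scaled to length. *Hist1h4m* and *Hist1h4n* are annotated with 402 and 430 bases, *Hist1h2ao* and *Hist1h2ap* with 480 and 482 bases, but *Hist2h3c2* and *Hist2h3c1* with 1020 and 1825 bases. The sum was 14.0, 6.12, 4.54, 2.49 and 4.35 FPKM for *Hist1h4m* with *Hist1h4n*, and 1.74, 47.1, 8.49, 7.43 and 60.4 FPKM for *Hist1h2ao* with *Hist1h2ap*.

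The labels were compared to ask whether histone gene levels differ between luminal cells labelled *Brca1* knockout and wild type. By limma on log2(FPKM + 1) with Benjamini-Hochberg adjustment, 0 of the 56 histone genes whose mean reached 1 FPKM passed 0.05, against 0% of all 11481 genes. At an unadjusted p under 0.05 there were 2 of 56, against 3.24% (372) of all genes. These were *Hist2h2bb* (log2 difference 1.11, standard error 0.258, limma adjusted p = 0.924) and *Hist1h4n* (-1.58, standard error 0.592, limma adjusted p = 0.924). The latter rests on replicate 4 (-0.68 without it), in which its copy *Hist1h4m* was present, and for the pair together both knockout-labelled libraries were at 2.49 and 4.35 FPKM and the lowest wild type library at 4.54 FPKM.

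The balance of higher and lower estimates was close to that of all genes. Of the 56 histone genes 35 (62.5%) had a higher estimate under the knockout label, beside 65.5% of all genes, and the median difference was 0.13 beside 0.11 for all genes (log2). By class, 1 of 4 H1, 11 of 14 H2A, 12 of 18 H2B, 7 of 9 H3 and 4 of 11 H4 genes had a higher estimate. Both knockout-labelled libraries lay above the 3 others for 5 of 56 genes (*Hist1h1b*, *Hist1h3b*, *Hist1h3i*, *Hist2h2bb* and *Hist2h2be*), against 17.5% of all genes. They lay below for 3 of 56 (*Hist1h4n*, *Hist2h3b* and *Hist2h3c2*), against 5.77%. Neither share of the histone genes exceeded its background.

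**Figure D4:**
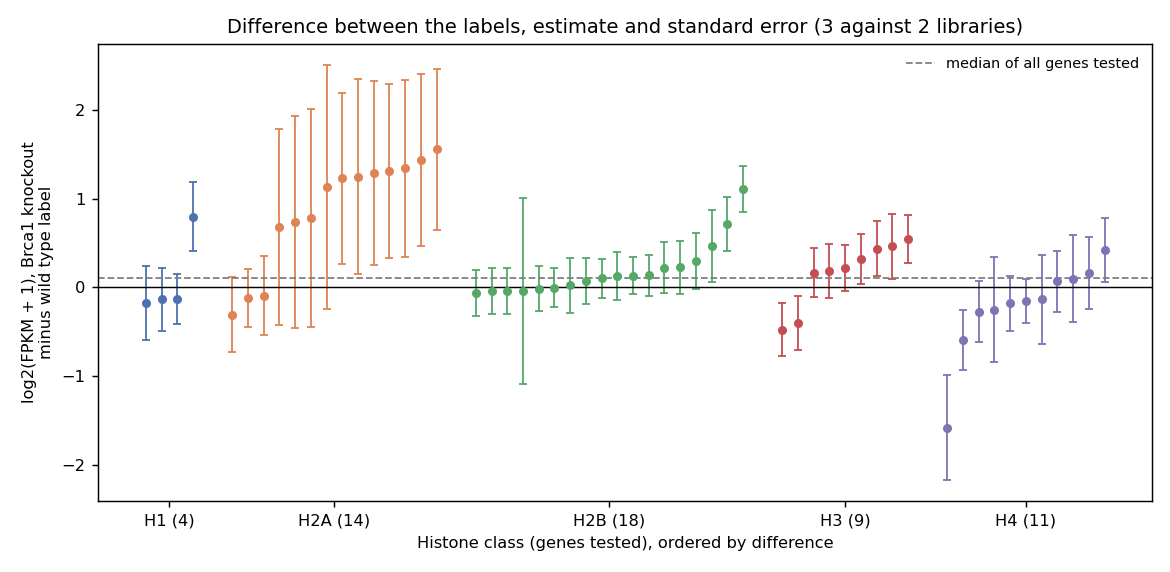
Estimated difference between the labels in log2(FPKM + 1), knockout minus wild type (vertical axis), for the 56 histone genes tested, ordered within their class (horizontal axis), with bars of 1 standard error from limma (3 against 2 libraries). The dashed line is the median of all genes tested (0.11), and the bars are widest among H2A genes.

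The leading genes had wide errors in this comparison. *Hist1h1c* had a difference of -0.17 (standard error 0.417, limma adjusted p = 0.964), which became 0.22 without replicate 3. For *Hist1h2ao* it was 1.13 (standard error 1.38, limma adjusted p = 0.928) and became -0.30 without replicate 5. *Hist1h2bc* had a difference of 0.02 (standard error 0.308, limma adjusted p = 0.996), with a sign that turned under either scaling. The summed level of all 68 genes was 378 ± 57.2 FPKM under the wild type label (SD, n = 3) and 469 ± 222 FPKM under the knockout label (SD, n = 2). Without the 13 *Hist1* H2A genes the sums were 296, 215 and 355 FPKM under the wild type label and 260 and 282 FPKM under the knockout label, which overlap. The corresponding log2 ratio was 0.31 with all members and -0.09 without those genes.

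The genes that make and use histones were set beside the histone genes. Of 17 genes for histone gene transcription and mRNA processing, 15 were tested, 0 passed the threshold in either direction (limma), 14 had a higher and 1 a lower estimate under the knockout label, and the median difference was 0.27. The list summed to 168, 144, 105, 163 and 164 FPKM in replicates 1 to 5, and 15 of its 17 genes were lowest in replicate 3. *Slbp*, whose protein binds the stem-loop, was at 17.8, 13.4, 12.7, 18.4 and 14.4 FPKM. *Npat*, the activator of histone gene transcription, was at 2.60, 2.35, 2.67, 4.01 and 3.26 FPKM. *Lsm11*, of the particle that cuts histone mRNA, was at 1.82, 1.78, 1.02, 1.96 and 1.93 FPKM. Replicates 2 and 5 were the 2 highest libraries for 3 of the 15 tested genes of this list (*Ccne1*, *Cpsf2* and *Eri1*), against the 8.65% of all genes given above.

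Among 15 histone chaperones, all tested, 0 passed the threshold (limma), 14 had a higher and 1 a lower estimate, and the median difference was 0.36. Of all genes 65.5% had a higher estimate, and 12 of the 15 chaperones were lowest in replicate 3, which is labelled wild type. *Chaf1b* and *Asf1b*, which deliver H3 and H4 to new DNA, were at 1.07 and 0.219 FPKM in replicate 3, against 7.08 to 9.86 and 1.70 to 3.16 FPKM in the other libraries. *Nasp*, a carrier of histones, was at 32.9, 24.9, 12.9, 30.6 and 27.9 FPKM.

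Replication-independent histones, which are made outside S phase too, had far higher FPKM. As given above, how fully mRNAs without a tail were sampled is not known, so a difference in amount is not shown. The 11 genes summed to 1429, 1240, 1206, 1553 and 1322 FPKM, of which *H3f3b* and *H3f3a*, encoding H3.3, gave means of 606 ± 122 and 348 ± 61.01 FPKM (SD, n = 5). The 12 replication-dependent H3 genes together had 13.02 FPKM. *H2afz* was at 171, 233, 67.6, 234 and 264 FPKM, and *H2afx*, the H2A variant marked at DNA breaks, at 28.9, 20.5, 8.49, 40.1 and 54.7 FPKM. *H1f0*, the linker histone of resting cells, was at 39.2, 32.0, 44.2, 42.1 and 50.4 FPKM. Of the 10 tested, 0 passed the threshold (limma), 9 had a higher and 1 a lower estimate, and the median difference was 0.31. A higher estimate was found for 65.5% of all genes, and 8 of the 11 genes were lowest in replicate 3, which is labelled wild type.

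Replicate 3 was also the library with the least cell cycle mRNA. The 21 S phase genes summed to 239, 250, 103, 284 and 324 FPKM in replicates 1 to 5, and 20 of them were lowest in replicate 3. Of the 20 tested, 6 had replicates 2 and 5 as their 2 highest libraries, against 8.65% of all genes. These were *Pcna*, *Mcm2*, *Mcm3*, *Cdc45*, *Rrm2* and *Tyms*. The 12 mitosis genes summed to 87.4, 91.9, 6.11, 135 and 185 FPKM, and all 12 were lowest there. *Mcm6*, of the replicative helicase, was at 24.7, 17.5, 5.24, 32.5 and 38.2 FPKM, and *Mki67*, a marker of cycling cells, at 9.66, 10.7, 0.504, 18.3 and 27.2 FPKM. In the same library 12 of the 56 histone genes were lowest (21.4%, against 51.8% of all genes) and 9 were highest (16.1%, against 18.5%). The 12 were 7 *Hist1* H3 genes, 4 *Hist1* H4 genes and *Hist1h2bb*, and the 9 were *Hist1h1c*, *Hist1h1d*, *Hist1h1e* and 6 *Hist2* or *Hist3* genes.

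**Figure D5:**
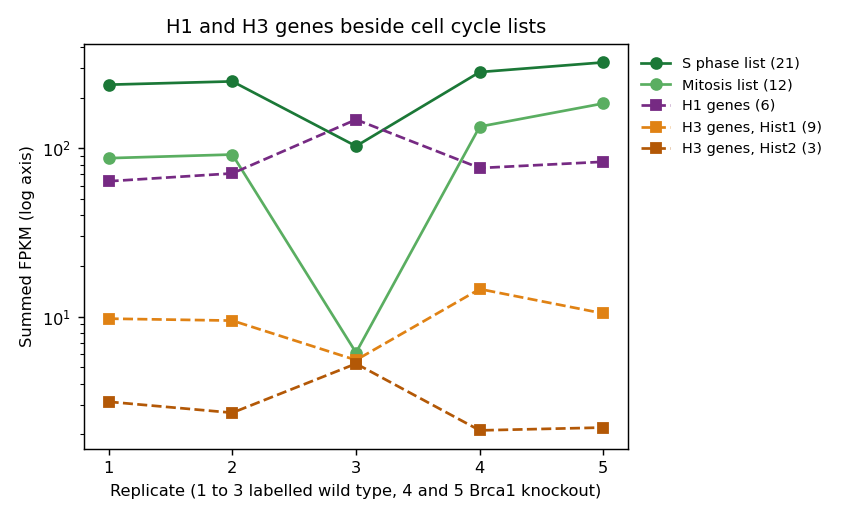
Summed FPKM (vertical axis, log scale) of the S phase and mitosis lists, the H1 genes and the H3 genes of Hist1 and of Hist2 in replicates 1 to 5 (horizontal axis), with the number of genes in brackets. Lines join the values of a list and stand for no order. In replicate 3 the cell cycle lists and the Hist1 H3 genes are at their lowest (103, 6.11 and 5.52 FPKM) and the H1 and Hist2 H3 genes at their highest (148 and 5.25 FPKM).

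Between the labels, 20 of 20 tested S phase genes and 12 of 12 mitosis genes had a higher estimate under the knockout label, with medians of 0.74 and 1.55 and 0 past the threshold (limma), and these medians include replicate 3. Apart from replicate 3 the S phase list spanned 239 to 324 FPKM and the *Hist1* H3 genes 9.47 to 14.6 FPKM, while H1 spanned 63.7 to 83.2 FPKM. The basal markers (6 genes) were lower in replicate 3 as well, at 7.38 FPKM against 39.6 to 129 FPKM, and the fibroblast markers (6 genes) were at 86.0 FPKM there, 109 FPKM in replicate 2 and 2.997 to 12.6 FPKM in the rest. *Adipoq* was listed at 0 in replicates 1, 2, 4 and 5. The part of cell type and stage in the levels of replicate 3 was not tested.

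The order of the histone genes within a library was also compared. Over the 56 tested histone genes the correlation of log2(FPKM + 1) was 0.943 between replicates 2 and 5 and 0.310 between replicates 1 and 5, beside 0.905 and 0.926 over all genes tested. With the *Hist1* H2A genes left out it ranged from 0.794 to 0.940 over the 10 pairs of libraries (45 genes), and over all genes tested from 0.805 to 0.935. These are correlations across genes, which are not independent replicates and share sequence, and they are given as a description.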

How the data were processed

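RNA-seq of 5 sorted luminal cell libraries was used, 3 labelled wild type and 2 labelled *Brca1* knockout. Per the labels and the study's methods, libraries were made with the NEBNext Ultra RNA kit and run paired-end on either of 2 Illumina HiSeq models, with no word on which one each library used. The label protocol speaks of tumors, the methods of sorted cells. The submitters' processing notes name Trimmomatic 0.35, TopHat2 2.0.13, Cufflinks 2.2.1 and mm10, while the study's text names another TopHat version. The authors deposited FPKM per gene, from an annotation not given in the sources used here. Cufflinks divides fragments that match several genes by its own model, which affects histone copies directly, and the kit does not keep strand, so overlapping genes cannot be separated.

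Of 24346 rows, 27 with a date in place of a gene name were left out. Symbols were matched to GENCODE M21. Differences were estimated on log2(FPKM + 1), which understates low genes, with limma 3.58.1 (lmFit, eBayes with trend, R 4.3.3) over the 11481 genes whose mean reached 1 FPKM, with Benjamini-Hochberg adjustment at 0.05. In simulated libraries of this comparison, a log2 shift of 1 given to 200 genes was called in 199 of them when replicates had an SD of 0.2 (11199 genes) and in 2 with an SD of 0.5 (11181 genes). A shift of 2 with an SD of 0.5 was called in 173 of 200 (11199 genes). The shifted genes were drawn only from the more highly expressed genes, so these counts do not describe the low histone genes. Nor do they describe the *Hist1* H2A genes, which spread more than either SD (standard error 1.38 for *Hist1h2ao*). Sums and medians over genes are descriptions without a test. Nothing says that the libraries came from separate animals, so p-values measure only the spread between these samples. Depth is unknown as deposited. It was estimated from multiples of the smallest FPKM step in 136 to 209 long genes per library (200 bases of fragment length subtracted), where 51.4% to 54.1% of values lay within 0.15 of a whole fragment, so counts were not recovered and no interval is given. Python 3.11.15, numpy 2.4.6 and pandas 2.3.3 were used.

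The histone genes, lists and tests were chosen with earlier results of these data known. Genes named were the 5 highest by mean in each class, any past the threshold, *Hist2*, *Hist3* and *Hist4* genes whose mean reached 1 FPKM, 3 testis genes, and up to 6 of each other list. *Hist1h2ac*, *Hist1h2ak*, *Hist1h2ah*, genes of the motif and pair comparisons, near-identical copies, *Hist2h2ab*, *Hist2h4*, *Hist4h4* and genes that separate the labels were named after their values were seen. Alternatives were a pseudocount of 0.1, no filter or a mean of 5 FPKM, median-of-ratios and quantile scaling, limma without trend, medians in place of sums, classes without their highest gene and each library left out. Class sums without *Hist1* H2A genes, without replicate 3 and after scaling per library were added after seeing the data.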

Additional observations from a re-analysis of the deposited data

Results flagged for a closer look

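In 6 of 36 values examined over the 5 libraries taken as 1 group, a library lay further from its nearest neighbour than Dixon's critical value of 0.71 for 5 samples allows, and in all 6 it was replicate 3. Chance gives about 1 in 20 in a single group, and the values are not independent. Over all 56 tested histone genes 11 had a library this far apart, against 12.6% of all 11481 genes, and for 6 of them it was replicate 3, against 8.95%. The summed H1 level was 148 FPKM there, *Hist1h1c* was at 125 FPKM, *Hist1h1d* at 11.7 FPKM, *Hist1h1e* at 10.05 FPKM, *Hist2h3c2* at 3.53 FPKM and *Hist3h2ba* at 7.66 FPKM, each above the other 4 libraries. The neighbours were at 83.2 FPKM for the H1 sum and 67.3 FPKM for *Hist1h1c*. No *Hist1* H2A value is among the 6, since there 2 libraries are high together.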

How the results depend on the processing

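No paired analysis was possible because nothing in the labels pairs a wild type library with a knockout library. The count of histone genes past the threshold was 0 in all 11 alternatives tried. The count over all genes ranged from 0 to 14 when a replicate was left out (2 without replicate 1, 14 without replicate 4 and 4 without replicate 5) and was 0 otherwise. With each replicate left out the median difference of the histone genes ranged from -0.059 (without replicate 5) to 0.19, and the log2 ratio of their summed level from -0.27 (without replicate 5) to 0.73. By class that ratio ranged from -0.46 to 0.24 for H1, from -0.67 (without replicate 5) to 1.61 for H2A, from -0.10 to 0.24 for H2B, from 0.084 (without replicate 4) to 0.49 for H3 and from -0.43 to 0.26 for H4. As a median of log2(FPKM + 1) the H1 difference was 0.35 in place of -0.24, while the summed level without *Hist1h1c* gave -0.030. Median-of-ratios scaling moved the median of all genes from 0.11 to -0.01 and that of the histone genes from 0.13 to 0.04. The sign turned, far from the threshold, for *Hist1h1c* (-0.43 to 0.22 with a replicate left out), *Hist1h1d* (-0.33 to 0.19), *Hist1h2ao* (-0.30 to 2.56), *Hist2h2aa1* (-0.41 to 0.31), *Hist1h4h* (-0.37 to 0.062), *Hist1h2bc* (-0.23 to 0.22, and -0.11 by median-of-ratios and -0.019 by quantile scaling) and *Hist1h4i* (-0.29 to 0.49, and -0.022 and -0.0029 by these scalings). The cause was not tested. Values near 0.3 FPKM rest on about 1 fragment in replicates 1 and 4 on a transcript of 500 bases.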
